A study of Rattus norvegicus with 8 samples.

Results

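Crystallin genes were followed in the rat retina, 9 genes of the 16633 that could be given 1 symbol each on the array. They are Cryab, Cryba1, Cryba2, Crygb, Crygc, Crygd, Cryge, Crygn and Crygs. Each was measured as the mean of the probe sets whose array annotation names that gene alone, 31 probe sets in all. The rule for the genes used no measured value, but they were chosen with earlier results of these data known. The retinas came from male Brown Norway rats aged 8 weeks, and RNA was collected 4 h later than either TES (transcorneal electrical stimulation, in which current enters the eye from the cornea) or a sham procedure. Each group had 4 Affymetrix Rat Gene 1.0 ST arrays, called sham 1 to sham 4 and TES 1 to TES 4 after their labels, which call the sham arrays TES controls. All rats were of the same strain, sex and age, and no lesion is described for either group. The labels and the series text disagree on the maker of the RNA kit and on the number of amplification cycles. Arrays are not tied to animals one by one, and p-values therefore speak only of sample-to-sample spread, some of which may be technical.

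Crystallins are the bulk proteins of the eye lens, where dense packing of the alpha, beta and gamma families gives transparency and refraction. Alpha-crystallins are small heat shock proteins that bind unfolding proteins, and Cryab is made in many tissues, glia among them. Beta- and gamma-crystallins share a fold of Greek key motifs, and several are also found in retina at lower levels than in lens. In whole tissue, fewer cells of a type and less RNA per cell cannot be told apart.

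Signals are log2 GC-RMA values, so a step of 1 is a doubling. The 8 arrays had medians over all probe sets of 5.32 to 5.41. Any 2 of them correlated across genes with r of 0.9896 to 0.9945. That range includes the pairs with sham 2 and TES 3, which recur below. The rod markers measured gave summed linear signals of 14736 to 16387 on sham arrays and 14699 to 16879 on TES arrays, as retina should hold. Olfactory receptor genes served as a guide to low signal, since retina is not known to use them widely. Their 95th percentile was 3.10. Cryab, Cryba1, Cryba2, Crygb, Crygd and Crygs lay above it by their mean over all arrays, and Crygc, Cryge and Crygn lay below.

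The crystallin genes varied between arrays of the same group far more than most genes, and no difference between TES and sham passed the adjusted threshold. Cryba2 had the widest spread within groups of all 16633 genes, with an SD of 1.59 where the median gene had 0.153. Cryba1 (1.20), Crygs (1.18) and Crygd (0.827) held ranks 4, 6 and 22. All 9 crystallin genes exceeded the median SD, and 4 of them exceeded the 99th percentile of 0.430. TES 3 was the highest array for 6 of the 9 genes, as it was for 11.03% of all genes, and sham 3 was the lowest for 6, as for 9.31% of all genes. Among the sham arrays alone, sham 2 was the highest for 7 of the 9, against 26.9% of all genes.

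**Figure D1:**
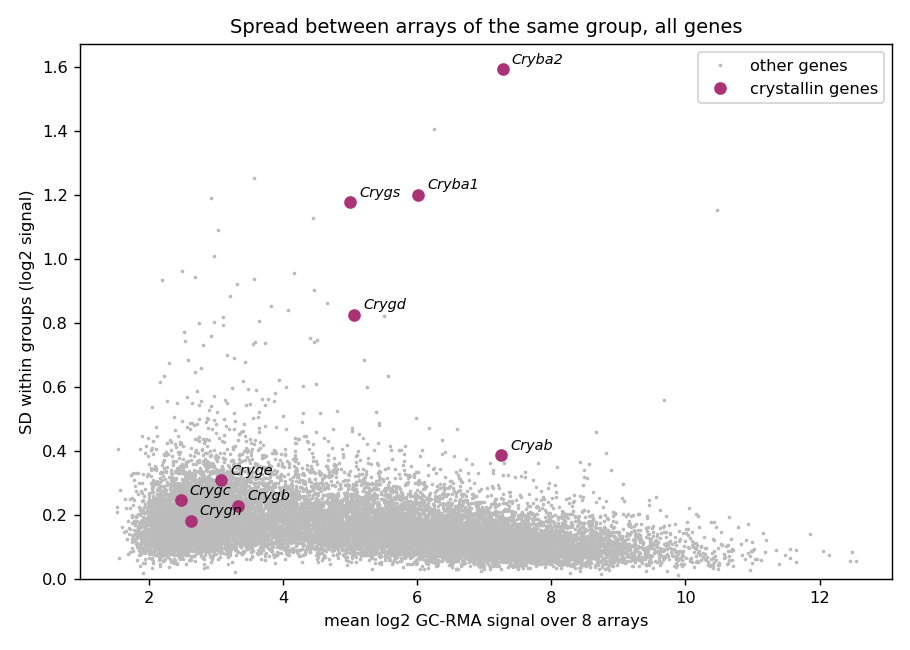
Each point is a gene, placed by its mean log2 signal over 8 arrays (x axis) and its SD within groups in log2 signal (y axis), with crystallin genes in purple. Cryba2 is the highest point of the plot at 1.59, and Cryba1, Crygs and Crygd also lie above nearly all genes of like signal.

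The beta-crystallins and Crygs carried the widest swings. Cryba2 encodes an acidic beta-crystallin. It stood at 6.36, 8.84, 5.003 and 6.95 on sham 1 to 4 and at 6.90, 6.28, 9.93 and 7.93 on TES 1 to 4. TES 3 and sham 2 were far above their own groups, sham 3 was far below, and the groups overlapped across most of their range. From sham 3 to TES 3 the linear signal differed 30.3-fold. TES 3 exceeded the mean of the other TES arrays 7.41-fold, and sham 2 exceeded the mean of the other sham arrays 6.67-fold.

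Cryba1, the other acidic beta-crystallin gene here, is known in rodents in retinal astrocytes and pigment epithelium as well as in lens. Its signals were 5.16, 7.17, 4.70 and 5.46 on sham 1 to 4 and 5.87, 5.34, 8.33 and 6.13 on TES 1 to 4. The same arrays stood out as for Cryba2, and the groups overlapped. TES 3 was 5.84-fold above the mean of the other TES arrays and sham 2 was 4.17-fold above the mean of the other sham arrays.

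Crygs encodes gamma-S-crystallin, a gamma-type protein that the adult lens keeps making. Its signals were 4.70, 5.98, 3.80 and 4.32 on sham 1 to 4 and 4.35, 4.32, 7.27 and 5.25 on TES 1 to 4. TES 3 was again the highest array and sham 3 the lowest. The excess of TES 3 over the mean of its group's other arrays was 6.17-fold, and that of sham 2 was 3.27-fold.

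Cryab, the small heat shock protein gene, moved on the same arrays but over a narrower range. It stood at 6.98, 7.37, 7.03 and 7.22 on sham 1 to 4 and at 7.06, 7.04, 8.12 and 7.18 on TES 1 to 4. Apart from TES 3, all its arrays lay within the span from 6.98 to 7.37. TES 3 was 2.04-fold above the mean of the other TES arrays, and sham 2 was 1.22-fold above the mean of the other sham arrays.

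**Figure D2:**
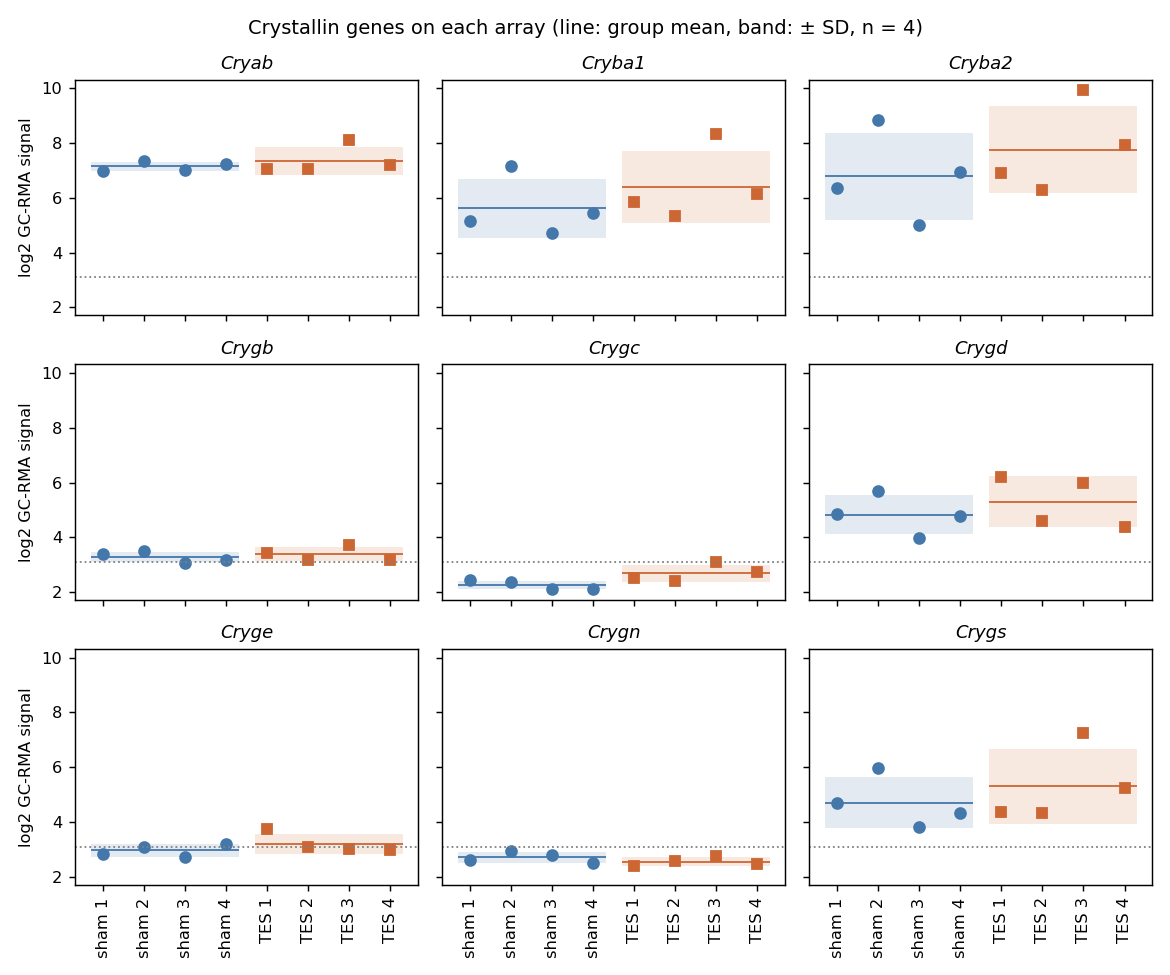
The log2 GC-RMA signal (y axis) of each crystallin gene on each of 8 arrays (x axis), with the group mean as a line, ± SD (n = 4) as a band and the low-signal guide of 3.10 as a dotted line. TES 3 and sham 2 stand out for Cryba1, Cryba2 and Crygs, and Crygd is also high on TES 1.

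The promoters of Cryba1, Cryba2 and Crygs are shown because these genes moved together while lying on different chromosomes. The sequences are the 100 bases before the RefSeq start of each gene on GRCr8, an assembly used for sequence only and not for the array's probes. Capitals mark TGACTCA, the core bound by AP-1 and by large Maf proteins, and TGCTGA, the flank that Maf proteins read. Both motifs are known parts of lens enhancers. They were searched on both strands and can overlap in a full Maf site.
Cryba1, chr10:63112818-63112917, minus strand: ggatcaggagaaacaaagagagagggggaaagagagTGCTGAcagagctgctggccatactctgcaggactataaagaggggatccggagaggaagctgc
Cryba2, chr9:83899132-83899231, minus strand: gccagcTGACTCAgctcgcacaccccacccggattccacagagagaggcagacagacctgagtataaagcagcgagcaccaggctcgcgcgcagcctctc
Crygs, chr11:91711655-91711754, plus strand: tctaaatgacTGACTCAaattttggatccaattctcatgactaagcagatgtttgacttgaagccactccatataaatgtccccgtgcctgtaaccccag
Over the 250 bases before the start, TGACTCA occurred in Cryba2 and Crygs among the 8 members with a RefSeq promoter, and in 4.05% of 33469 promoters. TGCTGA occurred in Cryba1, Cryba2, Crygc and Crygs, and in 15.1% of promoters. A match describes these letters only.

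The gamma-crystallin genes of chromosome 9 are structural proteins of the lens fibre, and their copies are alike in sequence. Crygd was the most variable of them. It stood at 4.84, 5.70, 3.99 and 4.79 on sham 1 to 4 and at 6.21, 4.61, 5.98 and 4.38 on TES 1 to 4. Its highest array was TES 1, not TES 3, and sham 3 was again the lowest. The pattern thus shared sham 2 and TES 3 with the beta-crystallins and added TES 1.

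Cryge had signals of 2.81, 3.10, 2.73 and 3.21 on sham 1 to 4 and of 3.75, 3.08, 2.99 and 2.97 on TES 1 to 4. TES 1 was its highest array, and the other 7 arrays lay between 2.73 and 3.21, near the low-signal guide. Crygb had signals of 3.37, 3.51, 3.07 and 3.18 on sham 1 to 4 and of 3.44, 3.18, 3.72 and 3.18 on TES 1 to 4. All of these were close to the guide, with TES 3 highest and sham 3 lowest. Crygc, measured by a single probe set, had 2.43, 2.36, 2.13 and 2.12 on sham 1 to 4 and 2.51, 2.41, 3.10 and 2.74 on TES 1 to 4. Its highest array, TES 3, only reached the guide.

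In the RefSeq gene order Crygb, Crygc and Crygd are direct neighbours, with 1 entry between Crygd and Cryge, and their promoters are shown for the motifs they share. Capitals mark CCTTTTGTG, a motif known from gamma-crystallin promoters, and runs of TATATA, a form of the TATA box.
Crygb, chr9:73957265-73957364, minus strand: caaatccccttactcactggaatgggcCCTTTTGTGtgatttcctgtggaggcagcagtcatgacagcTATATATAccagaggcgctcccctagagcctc
Crygc, chr9:73947368-73947467, minus strand: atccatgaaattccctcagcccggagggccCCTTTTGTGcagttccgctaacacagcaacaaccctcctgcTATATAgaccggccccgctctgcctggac
Crygd, chr9:73937410-73937509, minus strand: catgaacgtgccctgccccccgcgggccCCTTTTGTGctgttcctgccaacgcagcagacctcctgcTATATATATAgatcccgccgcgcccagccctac
Cryge, chr9:73926259-73926358, minus strand: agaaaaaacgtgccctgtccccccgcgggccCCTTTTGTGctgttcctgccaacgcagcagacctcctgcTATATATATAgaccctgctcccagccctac
CCTTTTGTG was found in these 4 promoters and in no other of the 8 matched members, against 0.335% of the 33469 promoters, searched on both strands over 250 bases. TATATA was found in these 4 and in Crygn, against 5.45% of promoters. Over the printed 100 bases, Crygd and Cryge were 89.3% identical, Crygc and Crygd 71.3%, and Crygb and Crygc 59.8%. The gamma-crystallin genes are near copies of each other, and probes may match more than 1 of them, so their single values are uncertain.

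Single probe sets showed where a gene's mean hid disagreement. The 4 probe sets of Cryba2 followed each other with r of 0.979 to 0.997 over the 8 arrays, and the pair for Crygs with r of 0.978. The 15 pairs among the 6 probe sets of Cryba1 had a median r of 0.900 and a lowest of 0.710. For Cryab, the 3 brighter probe sets correlated with r of 0.907 to 0.947, while the dimmest, with a mean of 3.57, ranged over only 0.312 on the log2 scale.

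The gamma genes were less uniform. The brighter probe set of Crygd stood at 5.92, 7.68, 3.99 and 5.65 on sham 1 to 4 and at 7.68, 6.02, 8.54 and 6.30 on TES 1 to 4, highest on TES 3. Its other probe set, with a mean of 3.65, was highest on TES 1 and correlated with the first at r = 0.036. For Crygb, 2 of the 7 probe sets were above the low-signal guide, and the brightest of them had 7.06, 7.65, 6.09 and 5.30 on sham 1 to 4 and 8.08, 6.61, 8.12 and 6.59 on TES 1 to 4. That probe set was high on TES 3, TES 1 and sham 2, a pattern that the gene's mean over 7 probe sets flattened. The brighter of the Cryge probe sets was highest on TES 1, at 5.31. These probe-set series are described after their values were seen.

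Another 3 probe sets are annotated to more than 1 crystallin and are no members. One, annotated to Cryge and Crygf, had 6.79, 8.44, 5.24 and 6.42 on sham 1 to 4 and 8.63, 6.59, 9.02 and 7.19 on TES 1 to 4. It was highest on TES 3, TES 1 and sham 2, and its group means were 6.72 ± 1.32 for sham and 7.86 ± 1.15 for TES (SD, n = 4). A second of the same annotation was highest on TES 1 at 6.59, and one annotated to Crygc, Crygb and Cryga was highest there at 6.92.

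**Figure D3:**
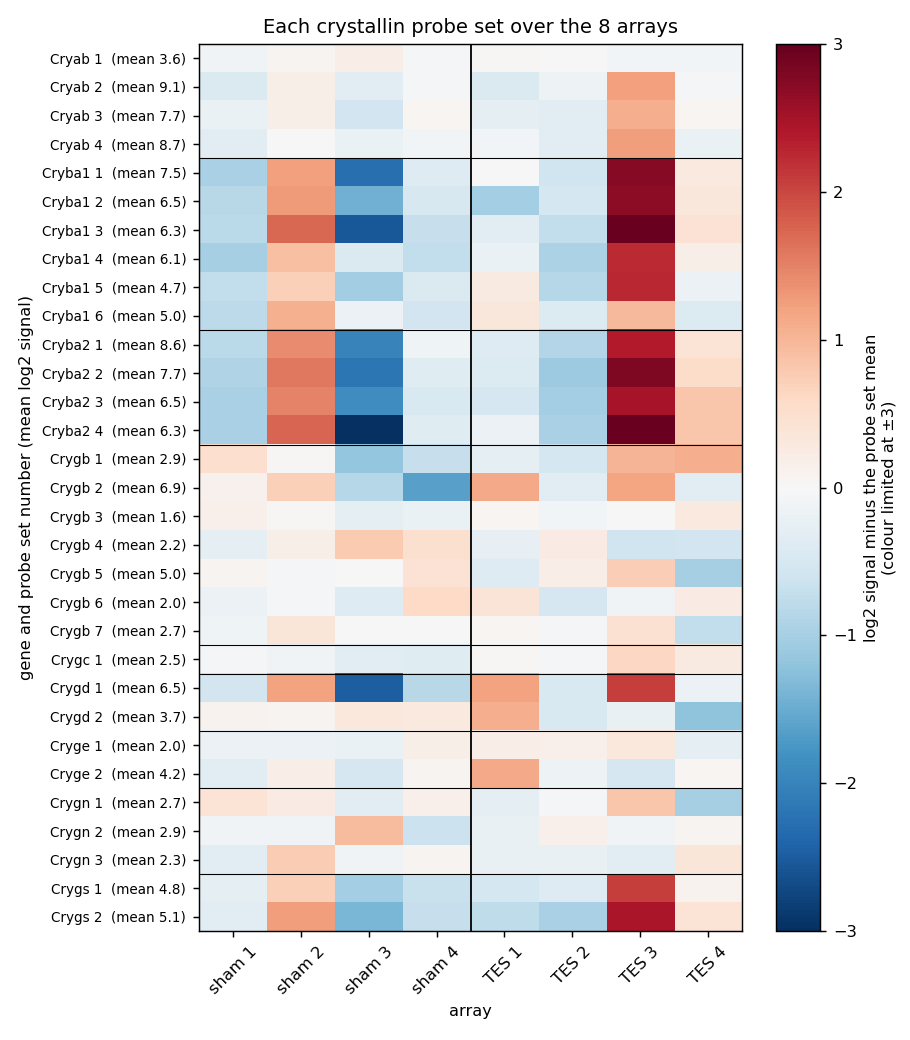
Each row is 1 of the 31 crystallin probe sets and each column 1 of 8 arrays. Colour gives the log2 signal minus that probe set's mean, limited at ±3. The TES 3 and sham 2 columns are high for Cryba1, Cryba2 and Crygs, and 21 of the 31 probe sets were highest on TES 3.

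Crygn encodes gamma-N-crystallin, placed between the beta and gamma families, and is known in mouse retina. It stood at 2.62, 2.93, 2.80 and 2.49 on sham 1 to 4 and at 2.38, 2.59, 2.76 and 2.45 on TES 1 to 4, all below the low-signal guide. Its 3 probe sets had r of -0.34 to -0.09 with each other. Sham 2 was its highest array and TES 1 its lowest, and it was the only member with a lower mean after TES.

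Covariation between genes was set out for all 36 pairs over the 8 arrays. The genes were proposed with their covariation known, so the p-values here describe these arrays and are no independent support. The median r was 0.66, where the median over all gene pairs on the array was 0.005. Of the 36 pairs, 11 (30.6%) had r of at least 0.8, against 1.18% of all gene pairs. In exact two-sided permutation tests, 15 pairs had p under 0.05, and 9 after Benjamini-Hochberg adjustment over the 36 pairs. By Spearman's rho, 1 pair passed after adjustment.

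Cryba1 and Cryba2 gave the closest pair, with r = 0.97 (exact permutation p = 9.92e-05, adjusted 0.00357) and rho = 0.95 (exact permutation p = 0.00114, adjusted 0.0411). Without TES 3 and sham 2, the arrays farthest from the median of Cryba1, r was 0.95. Cryba1 with Crygs had r = 0.97 (exact permutation p = 0.000744, adjusted 0.00893) and rho = 0.83 (exact permutation p = 0.0154, adjusted 0.0791), with r = 0.76 without the farthest 2 arrays. Cryba2 with Crygs kept r = 0.91 without its 2 farthest arrays, TES 3 and sham 3. Cryba1 therefore moved with Cryba2 and with Crygs without TES 3 and sham 2 too. For Cryba2 with Crygs, sham 2, a high array for both, was still among the arrays used.

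The relation of Cryab to these genes was less even. Its r was 0.91 with Cryba1, 0.85 with Cryba2 and 0.91 with Crygs. Without TES 3 and sham 2, its 2 farthest arrays, those values were 0.56, 0.66 and 0.36. By rank, Cryab followed both Cryba1 and Cryba2 with rho = 0.90 (exact permutation p = 0.00456, adjusted 0.0548 for each). Cryab with Crygs had rho = 0.60 (exact permutation p = 0.132, adjusted 0.366), and that relation rests on TES 3 and sham 2. Crygb with Cryba1 and with Crygs also went from 0.86 to 0.40 and from 0.84 to 0.27 without the 2 farthest arrays.

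Crygb with Crygd had r = 0.88 (exact permutation p = 0.0032, adjusted 0.0192) and rho = 0.86 (exact permutation p = 0.0107, adjusted 0.0791), and r was 0.88 again without its 2 farthest arrays. Crygd with Cryge, the pair of most alike promoters, had r = 0.67 (exact permutation p = 0.0488, adjusted 0.116), and 0.55 without TES 1 and TES 3. Crygd with Crygs had r = 0.57 (exact permutation p = 0.139, adjusted 0.250) over all arrays. That value was 0.78 without TES 1 and TES 3, its 2 farthest arrays. It was 0.88 without TES 1, 0.37 without TES 3 and 0.04 without both sham 2 and TES 3, so it depends on single arrays. Crygn with Cryge had r = -0.55 (exact permutation p = 0.152, adjusted 0.260). Taken as deviations from the group means, the 6 pairs among Cryab, Cryba1, Cryba2 and Crygs had r of 0.84 to 0.97, so they covaried within the groups.

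**Figure D4:**
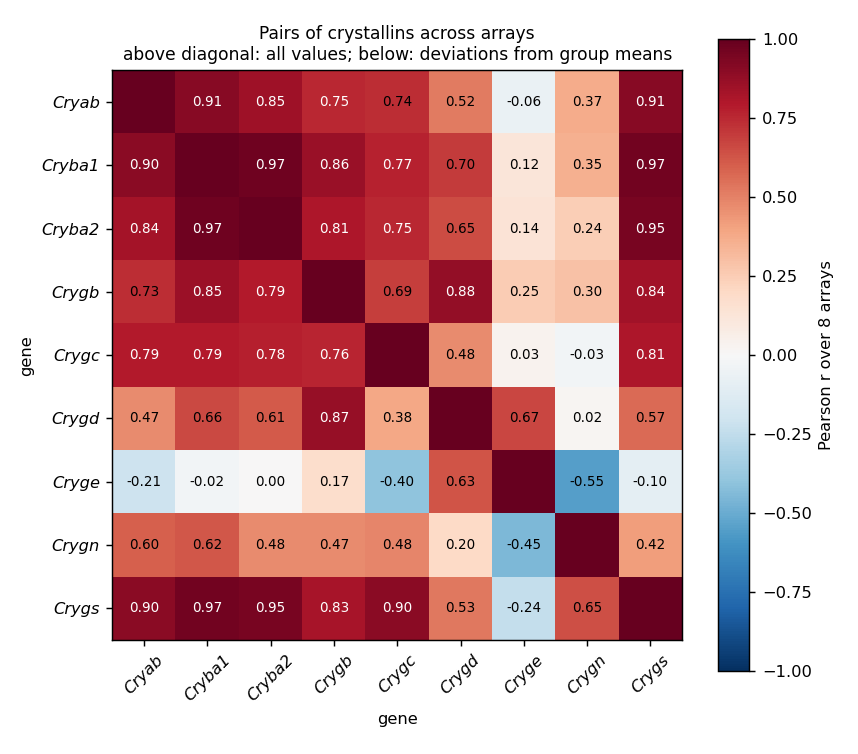
Pearson r between each pair of crystallin genes over 8 arrays above the diagonal, and r of deviations from group means below it, with colour from -1 to 1. The 6 pairs of Cryab, Cryba1, Cryba2 and Crygs range from 0.85 to 0.97 above the diagonal and from 0.84 to 0.97 below it.

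The comparison that the design was built for, TES against sham, gave higher means after TES for 8 of the 9 crystallin genes, where 45.1% of all genes were higher with no threshold applied. The genes covary, so these 8 are not separate observations. The median difference of the members was 0.43 on the log2 scale, against -0.01 over all genes. In limma, 0 of the 9 reached an adjusted p under 0.05, and 0.0% of all genes did, the smallest adjusted p on the array being 0.524. At an unadjusted limma p under 0.05 stood 1 of the 9 members, beside 5.57% of all genes, and it was higher after TES, as were 2.35% of all genes at that threshold. The series text selects transcripts that differ by 1.2 fold or more and have a p under 0.05, and by those thresholds the count was again 1 of 9, beside 3.59% of all genes. Of the 31 single probe sets, 1 had an unadjusted limma p under 0.05, beside 5.13% of all probe sets. The groups overlapped for all 9, and did not overlap for 3.31% of all genes.

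Cryba2 had 6.79 ± 1.59 in sham and 7.76 ± 1.60 in TES (SD, n = 4), a difference of 0.97 with a 95% interval from -0.84 to 2.79 (limma adjusted p = 0.957). Cryba1 had 5.63 ± 1.08 and 6.41 ± 1.31 (SD, n = 4), a difference of 0.79 with an interval from -0.58 to 2.16 (limma adjusted p = 0.951). The difference of Crygs was 0.60, from -0.75 to 1.94, and that of Crygd 0.46, from -0.49 to 1.41. These differences moved with single arrays. Without TES 3, the highest array, Cryba1 differed by 0.15, Cryba2 by 0.25 and Crygs by -0.06. Without sham 2, the same 3 genes differed by 1.31, 1.66 and 1.02, and without sham 3 by 0.48, 0.38 and 0.30. Crygd differed by 0.16 without TES 1, by 0.18 without sham 3, by 0.23 without TES 3 and by 0.75 without sham 2. None of the differences over all arrays exceeded the spread between arrays, and the intervals still hold rises of more than 1 log2 unit.

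Cryab differed by 0.20, with an interval from -0.26 to 0.67, and by -0.05 without TES 3. The difference of Cryge was 0.24 (-0.15 to 0.62), and 0.05 without TES 1. That of Crygb was 0.10 (-0.20 to 0.40), and -0.01 without TES 3. Crygn differed by -0.16 (-0.42 to 0.09), and by -0.09 without sham 2. Crygc was the member at an unadjusted p under 0.05, with 2.26 ± 0.16 in sham and 2.69 ± 0.31 in TES (SD, n = 4). Its difference was 0.43, from 0.11 to 0.75 (limma p = 0.0126, adjusted 0.823; exact permutation p = 0.0571 where 0.0286 is the smallest possible). It rests on 1 probe set under the low-signal guide, and TES 2 at 2.41 lay below sham 1 at 2.43.

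Leaving out both sham 2 and TES 3, a choice made after their values were seen, narrowed the intervals of the beta-crystallins. Cryba1 then differed by 0.67, from 0.15 to 1.19 (limma adjusted p = 0.8005), and Cryba2 by 0.93, from -0.21 to 2.08. With Crygc, 2 of the 9 members had an unadjusted p under 0.05, beside 6.11% of all genes.

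**Figure D5:**
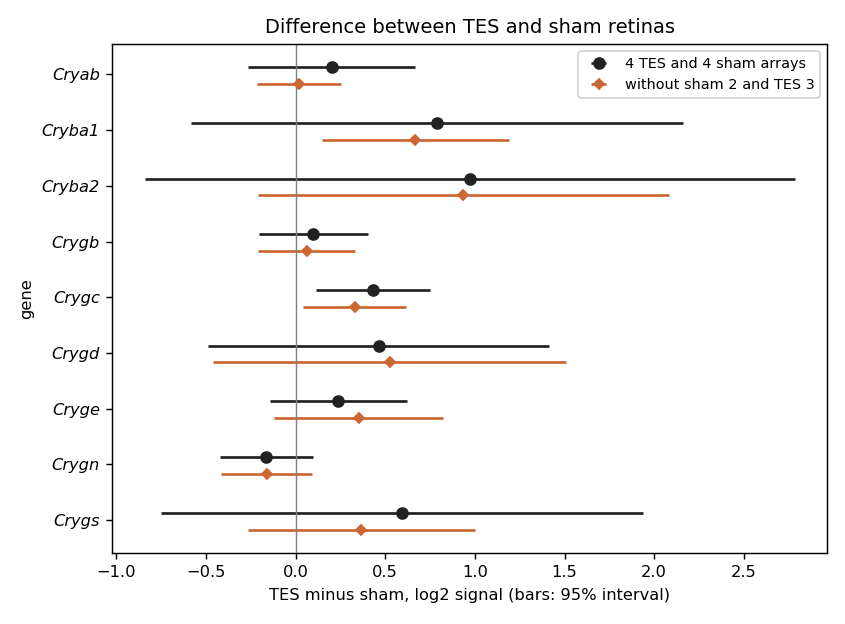
TES minus sham in log2 signal (x axis) for each crystallin gene, with 95% intervals from limma, over 4 TES and 4 sham arrays (black) and without sham 2 and TES 3 (orange). With all arrays only the interval of Crygc excludes 0, and without those arrays those of Crygc and Cryba1 do.

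Lens genes other than crystallins were read on the same arrays, because the lens lies beside the dissected retina. Of the 13 lens markers listed, 10 were measured and 6 were above the low-signal guide. Their summed linear signal was 387 to 435 on sham arrays and 383 to 501 on TES arrays, highest on TES 3. Prox1, which retinal interneurons also express, made up 63.5% to 73.4% of that sum. Without it, the sum was 116, 152, 116 and 127 on sham 1 to 4 and 107, 116, 183 and 130 on TES 1 to 4. TES 3 and sham 2 were then the highest arrays, where TES 3 and sham 1 were with Prox1 included. Of the markers left, Grifin, described below, had the highest mean (5.21) and the widest range (2.02 on the log2 scale). The sum leans on Grifin, and none was taken without it. The summed linear signal of the 9 crystallin genes was 328, 915, 245 and 393 on sham 1 to 4 and 441, 323, 1826 and 547 on TES 1 to 4.

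Grifin, a galectin-related lens protein, stood at 4.92, 5.71, 4.97 and 5.24 on sham 1 to 4 and at 4.48, 4.75, 6.502 and 5.13 on TES 1 to 4, with TES 3 and sham 2 highest. Its mean differed by 0.01 between TES and sham. Grifin was the gene most like Cryab of 12497 candidates that are no members, with r = 0.94 over 8 arrays. Lim2, a lens fibre membrane protein, was highest on TES 3 at 3.52, and its other arrays lay at or below 3.03, under the guide. Mip, the water channel of lens fibres, was also highest on TES 3, at 3.98, and differed by 0.48 between TES and sham, with overlapping groups (limma adjusted p = 0.820).

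Among the other lens markers, Bfsp1, a beaded filament protein, and Gja3, a lens connexin, had means of 3.02 and 2.70, below the guide. Bfsp1 was highest on sham 2 (3.31) and TES 3 (3.29), with r = 0.69 with the mean of the 9 crystallins. For Gja3 that r was -0.04. Dnase2b, a nuclease that clears DNA from lens fibres, differed by -0.19, also under the guide. Of the 10 lens genes measured on the wider list without crystallins, 4 were higher and 6 lower after TES. Mip was higher and Hspb1 lower at an unadjusted limma p under 0.05, a threshold that 5.57% of all genes passed. Prox1 itself ranged from 8.06 to 8.32, highest on sham 1. Foxe3 and Hsf4, transcription factors of the lens, were lowest on TES 3, at 2.64 and 4.55, and both were highest on sham 2. Pitx3 was highest on TES 4 and had r = -0.23 with the mean of the 9 crystallins. Of the 10 measured markers, 3 were highest on TES 3, and Grifin and Lim2 had r of at least 0.8 with the crystallin mean. Mip had r = 0.79, and the median r of the 10 was 0.19. The part of lens RNA in the crystallin signals was not tested.

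The sum of the pigment epithelium markers was highest on sham 2, one of the arrays on which the crystallins stood out. Of the single markers, Rdh5, Rgr and Dct were highest on sham 2. Ttr, Stra6, Tyrp1, Lrat, Silv and Mlana were highest on TES 2. Rpe65, Best1 and Tyr were highest on sham 1, TES 3 and TES 4. Most of the markers had lower means after TES. Their summed linear signal ran from 1191 to 1565 on sham arrays and from 795 to 1529 on TES arrays, with 10 of 12 measured genes above the guide. Of the 12, 9 had lower means after TES, where 45.1% of all genes were higher, and the median difference was -0.24. At an unadjusted limma p under 0.05 stood 4 of the 12, all lower after TES. At that threshold stood 5.57% of all genes in either direction, of which the higher ones made up 2.35% of all genes. Each of the 4 was lowest on TES 1 or TES 4, so they are not separate observations. Those 4 were Rpe65 (-0.50), Rdh5 (-0.50), Rgr (-0.48) and Ttr (-0.47), with limma adjusted p of 0.843 or more. Rpe65, the isomerase of the visual cycle, stood at 5.70, 5.57, 5.48 and 5.19 on sham 1 to 4 and at 4.68, 5.30, 5.37 and 4.58 on TES 1 to 4. Its r with the mean of the 9 crystallins was -0.02, and the part of pigment epithelium in the crystallin signals was not tested. The summed signal of corneal and surface epithelium genes was highest on sham 4, at 451, with 6 of 10 above the guide. Tkt, the brightest of them with a mean of 8.26, and Krt12 were highest on sham 4. The other genes of that list were highest elsewhere, Krt15, Krt4 and Aldh3a1 on TES 2. The summed signal of erythrocyte genes was highest on TES 4, at 1258, with 2 of 6 above the guide. None of the genes measured in these 3 lists had r of at least 0.8 with the crystallin mean, which 0.553% of all other genes had. Mueller glia markers, all 10 above the guide, summed to 4383 to 4812 on sham arrays and to 4583 to 4914 on TES arrays, a narrow range beside that of the crystallins.

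Of 15 other crystallin genes listed, among them lens enzymes related by name only, 4 were measured. No other alpha-, beta- or gamma-crystallin of that list had a probe set naming it alone, so the 4 do not speak for those families. Of the 4, 2 were higher and 2 lower after TES, and none stood at an unadjusted limma p under 0.05. Cryl1 differed by 0.10, Lgsn by 0.08 and Cryz by -0.01. Regulators of lens and crystallin genes gave 9 higher and 9 lower of 18 measured, none at an unadjusted p under 0.05, with a median difference of -0.01. The smallest p among them was that of Mafg, a small Maf partner, which was higher by 0.30 (limma adjusted p = 0.883). Hsf4, the heat shock factor of lens, differed by -0.13, and Pitx3, a lens homeobox factor, by 0.18.

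Small heat shock proteins and partners of Cryab gave 9 higher and 9 lower of 18 measured. At an unadjusted limma p under 0.05 stood 2 of the lower ones, beside 5.57% of all genes in either direction. Hspb1, a small heat shock protein that forms mixed complexes with Cryab, differed by -0.24 (limma adjusted p = 0.883), and Hspb9 by -0.23 under the low-signal guide. Bag3, a co-chaperone that binds small heat shock proteins, differed by -0.17. Hspb2, next to Cryab on chromosome 8 in the RefSeq gene order, stood at 3.76, 3.86, 3.71 and 3.31 on sham 1 to 4 and at 3.51, 3.80, 3.96 and 3.98 on TES 1 to 4. Its highest array was TES 4, with TES 3 next, and its groups overlapped. Hspb2 was chosen for its place and not by its values.

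The genes most like the mean of the 9 crystallins, of 12497 others above the low-signal guide, were Pcyt1b (r = 0.93 over 8 arrays), Gpr157, RGD1559781, Cenpm, Apol3, RGD1309188, Helb, Fn3krp, Zfp281 and Rai2 (r = 0.88). Their ranges were narrow beside those of the beta-crystallins, 0.28 on the log2 scale for Apol3 to 0.93 for Zfp281. With the crystallins themselves left out of the candidates, the genes most like Cryab after Grifin were Tdrd9 (r = 0.94), Cenpm (0.92), Kcnd3 (0.92) and Nefm (0.91). These likenesses are the highest of many and are a description.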

How the data were processed

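The values are log2 GC-RMA signals that the authors made in GeneSpring GX, per the series text; the submitters' processing notes name GCRMA with no version. The log base is not given and was taken from the values, whose highest, 13.2, is 9629 in base 2 and 558550, above a 16-bit scanner's 65535, in base e. Scanner files were not analysed here, and no source used here states a normalization between arrays.

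Of 213067 probe sets, 172924 had exactly 1 symbol in the array annotation and 1661 had several. Probe sets were averaged per gene with no filter on low values. TES was compared with sham in limma 3.58.1 under R 4.3.3 (lmFit and eBayes, no covariate), with Benjamini-Hochberg adjustment over 16633 genes and two-sided exact permutation of the 70 labelings. Correlations used Python 3.11.15 and scipy 1.17.1, with all 40320 orders of the arrays, or 576 within groups. Deviations were taken from group means. The fit was tested on simulated data.

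The 9 genes, the lists, the motifs and the tests were chosen with earlier results of these data known. Named genes are the members, the 3 of smallest unadjusted p in each of the 4 gene lists (other crystallins, lens genes, regulators, small heat shock proteins), the 10 most like the members' mean and the 5 most like Cryab; Hspb2, Maf and the tissue marker genes, which are otherwise summarised by list, are named outside that rule. Sequences are RefSeq's on GRCr8. Of the members, 8 matched, and Cryab is named without one.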

Additional observations from a re-analysis of the deposited data

Results flagged for a closer look

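In 18 sets of 4 arrays (9 genes, TES and sham), 2 held an array far from the others by Dixon's test, which flags about 1 in 20 by chance. Cryab on TES 3, at 8.12, stood apart from the other TES arrays, which lay between 7.04 and 7.18. Cryge on TES 1, at 3.755, stood apart from the other TES arrays, which lay between 2.97 and 3.08.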

How the results depend on the processing

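Of 153 member differences recomputed under the alternatives, 148 kept their direction and their side of the threshold, and the smallest adjusted p was 0.724. Leaving out 1 array, Cryab ran from -0.055 to 0.31, Crygb from -0.014 to 0.17 and Crygs from -0.061 to 1.02, each lowest, and reversed, without TES 3. With the median probe set per gene, Crygb turned to -0.096 and Crygn to 0.015. No gene passed the adjusted threshold in any alternative. The genes at an unadjusted p under 0.05, 927 as reported, were 414 without those below the median signal, fewer being tested, and 867 to 979 leaving out 1 array. Those past the series' thresholds, 597 as reported, were 367 without the lowest quartile, 129 without those below the median signal, 348 in the equal-variance model and 618 to 757 leaving out 1 array. The 1 member at an unadjusted p under 0.05 became 0 under both filters, 2 without sham 2 and TES 3, and 1 to 2 leaving out 1 array (2 without sham 2). The 8 members higher after TES became 3 without genes below the median signal, where 3 members were kept, and 5 to 8 leaving out 1 array (5 without TES 3).

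The median r of the 36 pairs, 0.66, was 0.49 by Spearman's rho, 0.33 without sham 2 and TES 3, and 0.36 (without TES 3) to 0.76 leaving out 1 array. The 11 pairs of r of at least 0.8 became 7 with the median probe set, 7 by rho, 5 without sham 2 and TES 3, and 7 (without TES 3) to 16 leaving out 1 array. The deviations of same-numbered arrays correlated with r of 0.12, 0.13, 0.006 and -0.12, and those of different-numbered arrays with r of -0.14 to 0.11. These values cannot settle whether the numbers pair the samples. With the replicate block, 1050 genes had an unadjusted p under 0.05, the median r was 0.84 and 23 pairs reached 0.8. It changed no call on a member. The causes were not tested. The number of arrays limits the precision.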

Other observations

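Maf, a large Maf transcription factor of lens and retina, was named after its values were seen. It stood at 5.01, 4.75, 5.54 and 5.29 on sham 1 to 4 and at 4.61, 5.36, 4.69 and 5.41 on TES 1 to 4. Its lowest arrays were TES 1, TES 3 and sham 2, the arrays on which Crygd was highest, and its highest was sham 3, on which Crygd was lowest. Its r with the mean of the 9 crystallins was -0.74 over 8 arrays, given as a description of 1 gene picked from a list of 18.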
